A study of Oryctolagus cuniculus with 4 samples.

Results

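Integrins, laminins, nidogens, syndecans, glypicans, sarcoglycans and dystroglycan connect cells to the matrix around them, and 47 of the 20294 genes measured in rabbit hamstring tendon belong to these families. Members were chosen by gene symbol alone, from prefixes for each family, and 13225 genes of the table had a symbol. The series holds 1 group of 4 samples, each the semitendinosus tendon of 1 female New Zealand White rabbit, 193 days old and labelled intact, with no drug, transgene or control group. Replicate numbers only name the animals. Each tendon was harvested as for a graft, its surface muscle was scraped away, and polyadenylated RNA of the whole remaining tissue was sequenced. The values therefore describe a mixture of tendon cells with blood vessels, nerve, fat and residual muscle, and fewer cells of a type cannot be told apart from less RNA per cell.

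Integrins are receptors made of an alpha and a beta subunit, which bind collagen, laminin, fibronectin or other cells outside and connect to actin through talin and kindlin inside. Laminins are trimers of an alpha, a beta and a gamma chain that form the basement membrane around muscle fibres, vessels, Schwann cells and fat cells, where nidogens tie the laminin sheet to type IV collagen. Dystroglycan binds laminin and, with the sarcoglycans, anchors the muscle cytoskeleton through dystrophin. Syndecans and glypicans are cell-surface heparan sulfate proteoglycans, the former with a transmembrane core and the latter with a lipid anchor. In tendon, collagen-binding integrins hold tenocytes to the fibrils, and the muscle-tendon junction is rich in laminin, dystroglycan and ITGA7.

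Levels are given in TPM, a share of all transcripts that is corrected for transcript length and has the same total in each tendon, and were computed from the deposited estimated counts. Of the 47 members, 43 had a mean of at least 1 TPM, or 91.5%, beside 63% of all genes and 75.4% of genes with a symbol. A mean of at least 10 TPM was reached by 30 members, beside 53% of genes with a symbol, and at least 100 TPM by 9, beside 7.71%. Together the members took 0.377, 0.314, 0.287 and 0.328% of TPM in tendons 1 to 4. The 4 members under 1 TPM were ITGAX, ITGAD, LAMA1 and GPC5. GPC5, a glypican, had 0 counts in all 4 tendons, and 3 counts, the most that a count of 0 allows, equal 0.0979 to 0.152 CPM (counts scaled to the library total, without a length correction). A further 13 symbols that fit the rule in RefSeq, among them the laminin gamma chains LAMC1 and LAMC3, NID1, ITGA9, ITGB3, LAMA5, SGCZ and GPC1, were not analysed here. Each member stood for 1 transcript, 618 to 12214 bases long, and the length was a multiple of 3 for 32 of the 47, beside 64.5% of all transcripts, so that many models may hold the coding part alone. The level of 1 gene beside another depends on these models. Of 9 tendon markers, the 8 that were measured had means of 44.5 (KERA) to 8636 TPM (COL1A2). With 1 group and no other tissue beside it, these levels do not test the tissue label.

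**Figure D1:**
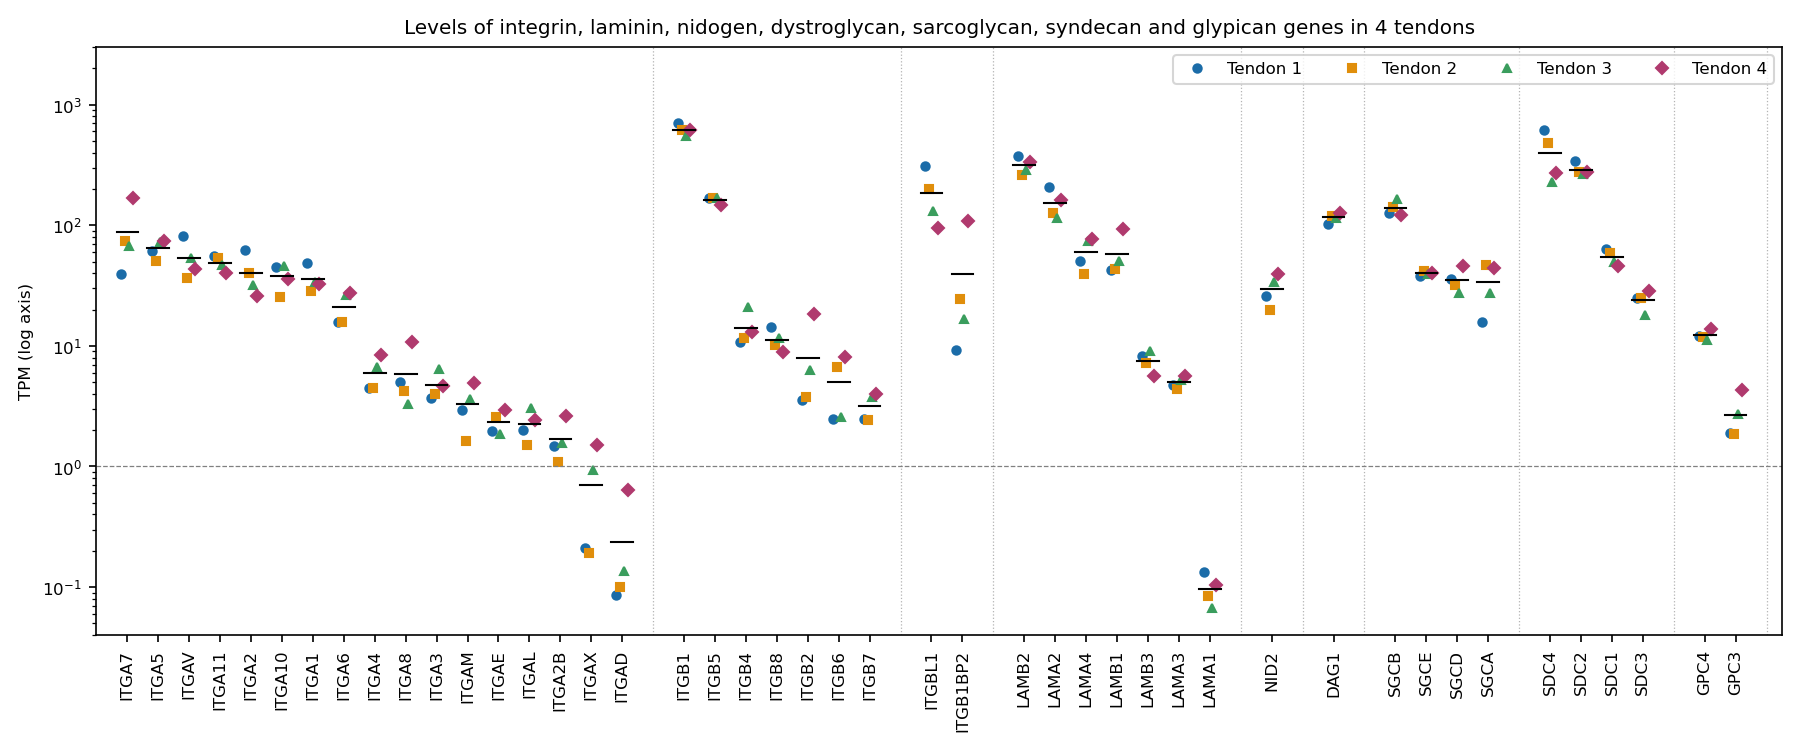
In this plot 45 members are shown, each by its TPM on a log axis, with 1 symbol per tendon, a bar at the mean, a dashed line at 1 TPM and dotted lines between families. ITGB1 had the highest mean, 619 TPM, and ITGB1BP2 ran from 9.17 to 107 TPM.

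Integrin beta subunits were led by ITGB1, the common partner of the collagen, laminin and fibronectin receptors. ITGB1 (ENSOCUG00000003623.3, OryCun2.0 scaffold GL018724, 2862294 to 2889817, forward strand) had 701, 612, 548 and 617 TPM in tendons 1 to 4, a mean of 619 ± 62.6 TPM (SD, n = 4), and ranked 129 of 13225 genes with a symbol. Its values lay close together. It made up 77.7, 75.1, 72.1 and 75.5% of the summed TPM of the 7 beta subunits measured. ITGB5, which pairs with ITGAV to bind vitronectin, had 167, 168, 167 and 148 TPM, with tendon 4 below the other three. ITGB1 exceeded ITGB5 in TPM by 4.19, 3.64, 3.28 and 4.16 times. On the log2 scale this ratio averaged 1.92 ± 0.17 (SD, n = 4; exact two-sided sign-flip permutation test, p = 0.125, adjusted p = 0.196 over 11 ratios), and 0.125 is the smallest p that 4 tendons allow, so that no ratio here could reach 0.05. The remaining beta subunits were far lower. ITGB4, the partner of ITGA6 in hemidesmosomes and in Schwann cells, had 10.7, 11.5, 20.9 and 12.99 TPM and was highest in tendon 3. ITGB8, which binds latent TGF-beta, had 14.3, 10.2, 11.5 and 8.82 TPM, and ITGB6, an epithelial TGF-beta-binding subunit, had 2.46, 6.72, 2.58 and 8.15 TPM. For ITGB6, tendons 2 and 4 lay above tendons 1 and 3, from 58, 271, 93 and 323 counts. Epithelial markers summed to 7.53, 3.70, 9.22 and 15.03 TPM over 6 of 7 genes. The basal keratin KRT5 was at or near 0, with 0, 0, 0.0370 and 0.0337 TPM, and 2 of the 6, EPCAM and KRT19, had a mean of at least 1 TPM. The part of epithelial cells in the ITGB6 and ITGB4 levels was not tested.

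The 4 collagen-binding alpha subunits, which recognise collagen through an inserted domain, had means between 35.9 TPM (ITGA1) and 48.9 TPM (ITGA11). ITGA11, the collagen I receptor of fibroblasts, had 55.8, 53.1, 46.4 and 40.4 TPM in tendons 1 to 4 (ENSOCUG00000017726.3, chromosome 17, 4139224 to 4243753, forward strand). ITGA2, a collagen I receptor also of platelets and epithelia, had 62.1, 39.8, 31.96 and 26.1 TPM, the highest value in tendon 1 and the lowest in tendon 4. ITGA10, known from chondrocytes, had 44.8, 25.3, 46.1 and 35.8 TPM, and ITGA1, a collagen IV receptor of smooth muscle and vessels, had 48.4, 28.5, 33.99 and 32.5 TPM. ITGA11 was the first of the 4 in tendons 2, 3 and 4 and ITGA2 in tendon 1, so their order was not the same in each animal. ITGA11 exceeded ITGA10 by 1.25, 2.10, 1.005 and 1.13 times (mean log2 ratio 0.39 ± 0.47, SD, n = 4) and ITGA1 by 1.15, 1.86, 1.36 and 1.24 times (0.46 ± 0.30; exact permutation test, p = 0.125, adjusted p = 0.196 for each). In tendon 3 ITGA11 and ITGA10 were nearly equal. The ITGA11 model is 9048 bases long and that of ITGA10 3486, and in CPM, with no length correction, the mean log2 ratio was 1.77. The summed level of the 4 genes was 211, 147, 158 and 135 TPM, highest in tendon 1. Cartilage markers summed to 881, 441, 361 and 300.4 TPM over 6 of 7 genes, and COL11A2 and COL2A1 made up most of that sum. Of the 5 with a mean of at least 1 TPM, 4 were highest in tendon 1, and SOX9 was highest in tendon 3, as ITGA10 was. The part of cartilage cells in these levels was not tested. ITGA1 and ITGA2 lie next to each other on chromosome 11, at 68827034 to 68999734 and 69030570 to 69134101. PELO lies inside the annotated span of ITGA1 on the same strand, and the ITGA1 counts were whole numbers in all 4 tendons.

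Among the laminin-binding alpha subunits, ITGA7 led and varied most. ITGA7, the laminin receptor of skeletal muscle and the muscle-tendon junction (ENSOCUG00000021735.2, chromosome 4, 39278626 to 39299134, reverse strand), had 39.6, 73.6, 67.9 and 168 TPM in tendons 1 to 4. Tendon 4 was highest and tendon 1 lowest, with tendons 2 and 3 close to each other. ITGA6, a laminin receptor of endothelium, epithelium and nerve, had 15.6, 15.6, 26.1 and 27.2 TPM, in 2 pairs of close values with tendons 3 and 4 above. ITGA3 ranged from 3.70 to 6.45 TPM. ITGA7 exceeded ITGA6 by 2.53, 4.71, 2.60 and 6.19 times (mean log2 ratio 1.89 ± 0.64, SD, n = 4; exact permutation test, p = 0.125, adjusted p = 0.196). Summed over the class, laminin-binding subunits had 58.9, 93.2, 100.4 and 200.2 TPM. The ratio of collagen-binding to laminin-binding subunits was 3.58, 1.57, 1.58 and 0.673, so collagen-binding subunits prevailed in tendons 1 to 3 and laminin-binding subunits in tendon 4. The ITGA7 span overlaps METTL7B on the opposite strand. The use of strand in counting is not given in the sources used here, neither gene had whole counts in all tendons, and whether their exons overlap was not analysed here. ITGA7 had 1648, 5241, 4327 and 11781 counts and METTL7B 93.3, 175, 168 and 501.

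Subunits that bind the RGD sequence of fibronectin and vitronectin formed another class. ITGA5, the fibronectin receptor subunit, had 60.6, 50.2, 72.3 and 73.9 TPM, with tendon 2 lowest. ITGAV, which pairs with several beta subunits, had 81.8, 36.2, 53.1 and 43.6 TPM and stood highest in tendon 1. The ratio of ITGA5 to ITGAV was 0.741, 1.39, 1.36 and 1.70, above 1 in 3 of 4 tendons (mean log2 ratio 0.31 ± 0.52; exact permutation test, p = 0.25, adjusted p = 0.344). ITGA8, a subunit of smooth muscle and mesenchymal cells, had 4.99, 4.26, 3.30 and 10.7 TPM, with tendon 4 above the other three. ITGA2B, the platelet fibrinogen receptor subunit, had 1.48, 1.09, 1.57 and 2.63 TPM from 49, 62, 80 and 147 counts. Tendon 4 was highest. Platelet and megakaryocyte markers summed to 2.35, 1.01, 1.51 and 1.54 TPM over 3 of 7 genes, highest in tendon 1. Most of that sum came from TUBB1, with 1.69, 0.886, 1.35 and 1.42 TPM in tendons 1 to 4. The platelet receptor genes GP9 and GP1BA were near or at 0, with 0.614, 0.120, 0.134 and 0.122 TPM for GP9 and 0.0502, 0, 0.0327 and 0 TPM for GP1BA. ITGB1 stood at 1.66, 1.83, 1.39 and 1.31 times the summed TPM of its 11 measured alpha partners.

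Leukocyte integrins were low, and most of them were highest in tendon 4. ITGB2, the beta subunit shared by the leukocyte receptors, had 3.59, 3.76, 6.26 and 18.2 TPM in tendons 1 to 4. Its partner ITGAM, the complement receptor of macrophages and neutrophils, had 2.91, 1.62, 3.65 and 4.90 TPM. ITGAX, a partner in myeloid and dendritic cells, had 0.210, 0.193, 0.933 and 1.50 TPM, and ITGAD had 0.0860, 0.101, 0.136 and 0.633 TPM from 3, 6, 7.25 and 37.1 counts. ITGB2, ITGAM, ITGAX and ITGAD were all highest in tendon 4, and tendons 1 and 2 were the 2 lowest for each of them. ITGAL, the lymphocyte partner, ranged from 1.50 to 3.07 TPM and was highest in tendon 3. ITGA4, the lymphocyte receptor subunit for vascular VCAM1, ranged from 4.44 to 8.41 TPM. Its span overlaps CERKL on the opposite strand, and both lacked whole counts, at 171, 289.8, 390.3 and 539 for ITGA4 and 129, 220.2, 306 and 515 for the CERKL model with counts. ITGAE, which binds epithelial cadherin, ranged from 1.86 to 2.92 TPM and its partner ITGB7 from 2.44 to 4.02 TPM. The 12 macrophage and leukocyte markers summed to 171, 167, 285 and 390.5 TPM, and 11 of the 12 were highest in tendon 4 in CPM normalised by TMM. Lymphocyte markers summed to 5.16, 3.14, 4.71 and 9.68 TPM over 6 of 10 genes. Only 1 of these, CD79B, had a mean of at least 1 TPM, with 4.06, 2.35, 3.25 and 4.53 TPM in tendons 1 to 4. CD2, a T cell surface marker, was listed at 0 in tendons 1 and 3. The part of these cells in the integrin levels was not tested. ITGAD, ITGAX, ITGAM and ITGAL lie on the same scaffold, GL018752, as near relatives, and reads may have been divided among ITGAD, ITGAX and ITGAM, whose counts were not whole numbers.

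The laminin chains measured were led by LAMB2 and LAMA2. LAMA2 is the alpha chain of the muscle fibre basement membrane, where it joins mainly LAMB1, and LAMB2 is known from the neuromuscular and muscle-tendon junctions and from vessels. LAMB2 (ENSOCUG00000005101.3, chromosome 9, 16736873 to 16748755, reverse strand) had 374, 259, 289 and 331 TPM in tendons 1 to 4, a mean of 313 ± 50.3 TPM (SD, n = 4). LAMA2 (chromosome 12, 118811700 to 119513490, forward strand) had 206, 126, 115 and 160.3 TPM, a mean of 152 ± 40.9 TPM. Both were highest in tendon 1, on the TPM and the TMM scale. LAMB2 made up 88.02, 83.6, 82.8 and 77.1% of the beta chains measured and LAMA2 78.9, 74.1, 59.2 and 65.9% of the alpha chains measured. The alpha chain LAMA5 was not analysed here. LAMA4, the alpha chain of endothelium, fat and smooth muscle, had 50.2, 39.7, 74.2 and 77.3 TPM, with tendons 3 and 4 above tendons 1 and 2. LAMB1, the beta chain of vessels and of developing tissue, had 42.7, 43.7, 50.8 and 92.5 TPM, and tendon 4 stood apart above the 3 others, which were close. LAMA2 exceeded LAMA4 by 4.10, 3.17, 1.56 and 2.08 times (mean log2 ratio 1.35 ± 0.62), and LAMB1 was 0.114, 0.169, 0.176 and 0.279 times LAMB2 (-2.51 ± 0.53; SD, n = 4; exact permutation test, p = 0.125, adjusted p = 0.196 for each). Of the chains of the epithelial laminin, LAMA3 ranged from 4.35 to 5.63 TPM and LAMB3 from 5.60 to 9.12 TPM. LAMA1, an embryonic chain, had 13, 14, 10 and 17 counts, or 0.134, 0.0841, 0.0671 and 0.104 TPM. The alpha chains measured summed to 0.615, 0.549, 0.559 and 0.567 times the beta chains measured, a ratio that differed little between animals. NID2, the nidogen that links laminin to type IV collagen, had 25.8, 19.8, 33.7 and 39.6 TPM, lowest in tendon 2 and highest in tendon 4.

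**Figure D2:**
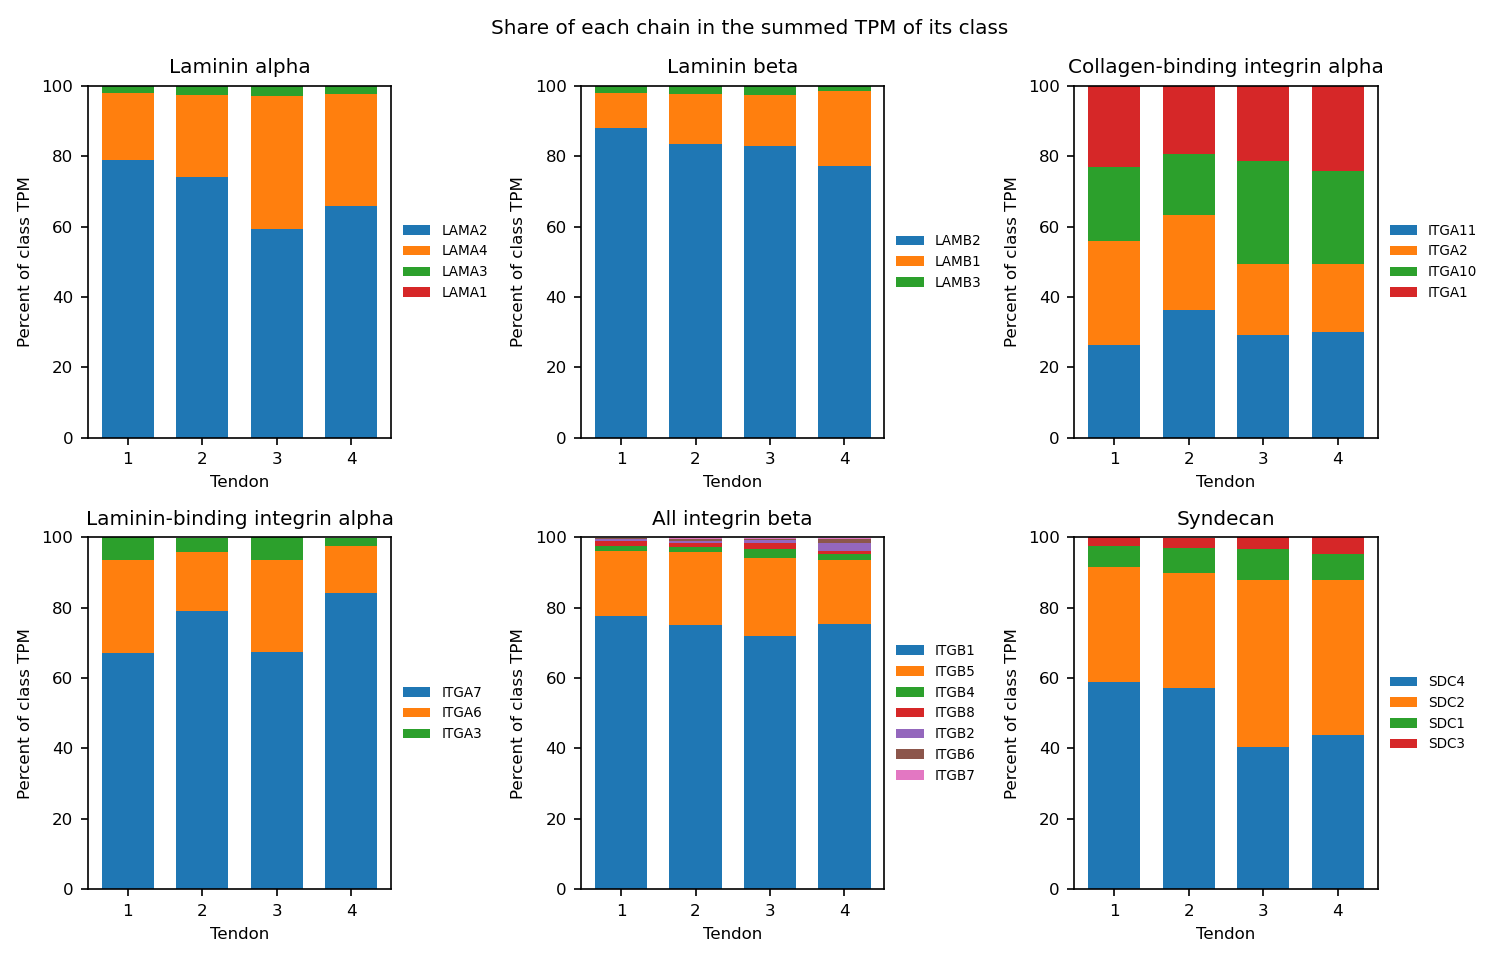
Stacked bars give the percent of the summed TPM of 6 classes that each measured chain took, 1 bar per tendon. LAMB2, LAMA2, ITGA7 and ITGB1 lead their classes in all 4 tendons, while the 4 collagen-binding subunits each hold between 17.2% and 36.2%.

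Dystroglycan and its sarcoglycan partners were expressed in all 4 tendons. DAG1, whose product is cut into the laminin-binding and the membrane-spanning subunit of dystroglycan (ENSOCUG00000003439.3, chromosome 9, 16989710 to 17069894, forward strand), had 103, 120.3, 115 and 127 TPM, a mean of 116 ± 10.3 TPM (SD, n = 4). SGCB, a sarcoglycan of muscle and other tissues, was the highest of the 5 sarcoglycans with 126, 141, 164 and 122 TPM. SGCE, the widely expressed relative of SGCA, had 37.9, 41.7, 39.6 and 40.3 TPM and the smallest SD beside its mean of all members with a mean of at least 1 TPM. On the TMM scale SGCE was highest in tendon 2 and lowest in tendon 1. SGCA, the muscle-specific member, had 15.9, 47.2, 27.6 and 44.5 TPM, with tendons 2 and 4 above 3 and tendon 1 lowest. SGCD, of striated and smooth muscle, had 35.7, 32.2, 27.7 and 46.05 TPM, highest in tendon 4 and lowest in tendon 3. The ratio of SGCE to SGCA was 2.39, 0.883, 1.44 and 0.907, above 1 in 2 of 4 tendons (mean log2 ratio 0.36 ± 0.67; SD, n = 4; exact permutation test, p = 0.5, adjusted p = 0.55). SGCA (37497298 to 37508002, reverse strand) lies inside the annotated span of COL1A1 on chromosome 19, and ITGA3 overlaps its end. Whether exons overlap was not analysed here. COL1A1 had 15218, 8838, 3672 and 5354 TPM, another order of tendons than SGCA, and the SGCA and ITGA3 counts were whole numbers in all 4 tendons. In all, the annotated spans of 13 members overlapped another gene.

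The 4 syndecans measured had a higher summed level than the 3 glypicans measured. Syndecans summed to 1051, 838, 559 and 618 TPM and glypicans to 13.8, 13.7, 13.9 and 18.01 TPM. Other glypicans, GPC1 among them, were not analysed here, so the glypican sum covers part of that family. SDC4, the syndecan of focal adhesions (ENSOCUG00000009097.2, scaffold GL018725, 474219 to 483171, reverse strand), had 618, 479, 226 and 269.8 TPM in tendons 1 to 4, with tendons 1 and 2 above tendons 3 and 4. SDC2, the syndecan of mesenchymal cells, had 344, 275, 266 and 273 TPM, with tendon 1 above the other three. SDC1, known from epithelium and plasma cells, had 63.6, 58.99, 49.4 and 45.8 TPM, and SDC3, known from nerve and muscle stem cells, had 25.1, 24.9, 17.9 and 28.6 TPM. SDC2 stood below SDC4 in tendons 1 and 2 and above it in tendons 3 and 4, at ratios of 0.556, 0.573, 1.17 and 1.01 (mean log2 ratio -0.35 ± 0.56; SD, n = 4; exact permutation test, p = 0.5, adjusted p = 0.55). The SDC4 model has 618 bases and that of SDC2 1606, and in CPM the mean log2 ratio turned to 1.03 in favour of SDC2. SDC1 exceeded SDC3 by 2.54, 2.37, 2.77 and 1.60 times (1.18 ± 0.35; exact permutation test, p = 0.125, adjusted p = 0.196). Glypicans were lower. GPC4 had 11.96, 11.9, 11.2 and 13.7 TPM and GPC3, a regulator of growth-factor signalling that is abundant in embryonic tissue, 1.89, 1.84, 2.73 and 4.27 TPM from 51, 85, 113 and 194 counts. Both genes are neighbours on chromosome X, at 107645606 to 107766967 and 107901326 to 108357186, and both were highest in tendon 4.

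Among the members, 2 carry integrin names without being receptor subunits. ITGBL1, a secreted protein with repeats like those of integrin beta subunits (ENSOCUG00000008813.2, chromosome 8, 103122599 to 103266851, forward strand), had 311, 198, 130.5 and 94.5 TPM, highest in tendon 1 and lowest in tendon 4. ITGB1BP2, or melusin, a muscle protein that binds the tail of ITGB1 (ENSOCUG00000016643.2, chromosome X, 49759477 to 49762741, forward strand), had 9.17, 24.5, 16.7 and 107 TPM, far higher in tendon 4 than in the other three. Its mean was 39.4 ± 45.7 TPM (SD, n = 4), and 16.8 TPM without tendon 4. ITGB1BP2 was lowest in tendon 1 and highest in tendon 4, the reverse of ITGBL1 at both ends.

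To compare animals, counts were scaled by TMM, which takes most genes to be equal between libraries, and the highest tendon was divided by the lowest in these CPM. On this scale 14 of the 43 members with a mean of at least 1 TPM reached 2-fold, or 32.6%, beside 18.8% of all 12786 genes with such a mean and 17.7% of those with a symbol. The median fold of the members was 1.73, beside 1.41 over all those genes. Without tendon 4 the count was 8 of 43, beside 13.3%, and without tendon 1 it was 10, beside 12.2%. The 14 were GPC3, ITGA2, ITGA2B, ITGA7, ITGA8, ITGAM, ITGB1BP2, ITGB2, ITGB4, ITGB6, ITGBL1, LAMB1, SDC4 and SGCA. Just inside the limit was ITGB4 at 2.03-fold and just outside was ITGAV at 1.97-fold. ITGB1BP2 had the widest range at 11.7-fold, and 3.08-fold without tendon 4. ITGB2 followed at 5.08-fold (1.81-fold without tendon 4) and ITGA7 at 4.26-fold (2.14-fold without it). SGCA ranged 3.41-fold, ITGB6 3.32-fold, ITGBL1 3.28-fold, ITGA8 3.14-fold and SDC4 2.64-fold. SGCA fell to 1.90-fold without tendon 1, and ITGA8 to 1.46-fold and LAMB1 from 2.17- to 1.23-fold without tendon 4. Under 2-fold without tendon 4 were GPC3, ITGA2, ITGA2B, ITGA8, ITGB2 and LAMB1, and without tendon 1 ITGA2, ITGB4, LAMB1 and SGCA. Without tendon 2, ITGA2B and ITGAM fell under the limit, and without tendon 3 ITGB4 did. Whichever tendon was left out, 5 members stayed at 2-fold or more: ITGA7, ITGB1BP2, ITGB6, ITGBL1 and SDC4. The share of all genes that did so is not given here. At the other end, GPC4, LAMA3, ITGB1, SDC2, LAMB2 and SGCE ranged 1.19-, 1.19-, 1.24-, 1.26-, 1.26- and 1.26-fold.

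Tendon 4 was most often the highest. Of the 43 members, 9, 8, 7 and 19 were highest in tendons 1 to 4, beside 30.2%, 29.9%, 16.9% and 23% of all genes. The members' shares were 20.9%, 18.6%, 16.3% and 44.2%. The lowest value fell in tendons 1 to 4 for 16, 9, 8 and 10 members, beside 31.6%, 23.9%, 16.8% and 27.6% of all genes. Against TMM, the TPM scale placed tendon 2 at -0.14 and the other tendons at 0.01 to 0.06 (log2, centred on the 4 tendons). In TPM the counts of highest tendons were 12, 3, 6 and 22, beside 38.6%, 12.5%, 16.7% and 32.3% of all genes. Both past 2-fold and highest in tendon 4 were 9 of the 43 members, or 20.9%, beside 8.07% of all 12786 genes. Of the genes past 2-fold alone, tendon 4 was highest for 9 of 14 members, or 64.3%, beside 1032 of 2410 genes, or 42.8%. These 9 were GPC3, ITGA2B, ITGA7, ITGA8, ITGAM, ITGB1BP2, ITGB2, ITGB6 and LAMB1. In tendon 1, 3 of the 43 were past 2-fold and highest (ITGA2, ITGBL1 and SDC4), or 6.98%, beside 3.89% of all genes. SGCA was the 1 of 43 in tendon 2, or 2.33%, beside 4.01%, and ITGB4 the 1 of 43 in tendon 3, beside 2.87%.

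**Figure D3:**
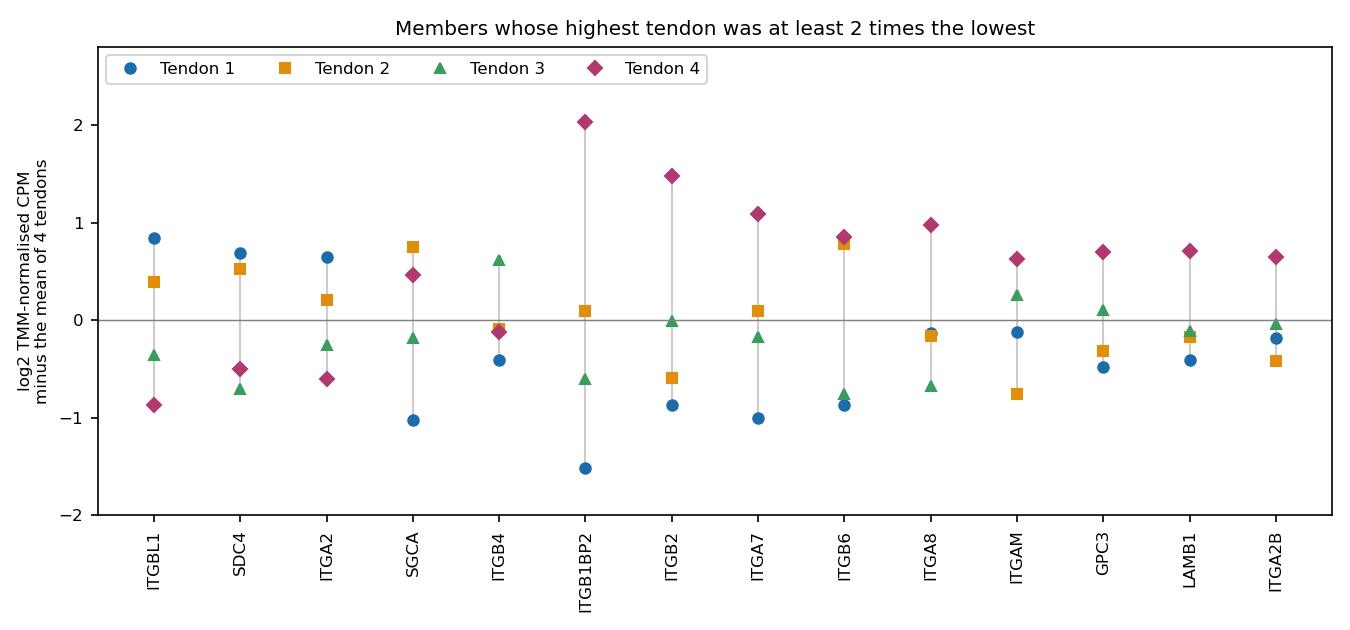
Log2 TMM-normalised CPM minus the mean of the 4 tendons for the 14 members at 2-fold or more between highest and lowest, 1 point per tendon, ordered by the tendon that was highest. Tendon 4 is the top point for 9 of the 14, and tendon 1 for ITGBL1, SDC4 and ITGA2.

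Marker genes of other cell types varied between the same tendons. Their levels stand here beside members, some of them known from those cells and others with a similar order of tendons. Slow muscle markers summed to 4489.9, 16275, 8635 and 10321 TPM over 6 of 8 genes in tendons 1 to 4, and markers common to all fibres to 5784, 22938, 11610.0 and 15428 TPM over 8 of 9. SGCA in TPM had the same order of tendons as both lists, with tendon 2 first, then tendons 4, 3 and 1. Fast muscle markers summed to 119, 486, 214 and 2779 TPM over 9 of 11 genes, and TNNC2, the fast troponin C, had 1.59, 20.4, 4.41 and 926 TPM. The muscle stem cell and developing muscle list summed to 56.1, 76.9, 55.2 and 353 TPM over 8 of 8, with 7 of 7 genes at 1 TPM or more highest in tendon 4. ITGA7 and ITGB1BP2 were highest in tendon 4 and lowest in tendon 1, as was the sum of the fast markers. In tendons 1 to 3 most of that sum came from CASQ1, with 101, 406, 191 and 391 TPM in tendons 1 to 4, highest in tendon 2. TNNT3 (0.613, 0.968, 0.400 and 233 TPM) and MYLPF (9.67, 23.1, 8.08 and 573 TPM) were lowest in tendon 3, and PVALB in tendon 2. The other fast markers, TNNC2, MYH1, MYH2, ATP2A1, ACTN3 and CASQ1, were lowest in tendon 1. LAMA2 and LAMB2 were highest in tendon 1, where the slow, fast and common muscle sums were lowest. Endothelial markers summed to 304, 360.3, 482 and 455 TPM over 11 of 11 genes, each highest in tendon 3 or 4 by TMM-normalised CPM. LAMA4 and ITGA6 were also higher in tendons 3 and 4 than in 1 and 2, as was NID2. ITGA1 and LAMB2, which are also known from vessels, were instead highest in tendon 1, where the endothelial sum was lowest. Pericyte and smooth muscle markers summed to 761, 1641, 1265 and 1836 TPM over 8 of 9 genes, and 859 TPM of their mean of 1376 TPM came from DES, which striated muscle shares. Adipocyte markers, highest in tendon 4 for 6 of the 6 genes measured, summed to 249, 404, 548 and 1043 TPM. Schwann cell and nerve markers summed to 349.9, 289, 318 and 260.1 TPM over 10 of 10 genes, mostly PMP22, with SOX10 at 0.138, 0.216, 0.392 and 0.358 TPM. Tenocyte markers summed to 46149, 35893, 17235 and 19342 TPM over 8 of 9 genes, most of it from COL1A1, COL1A2, FMOD and THBS4. ITGBL1, ITGA2 and SDC4 were the 3 members past 2-fold and highest in tendon 1. All were higher in tendons 1 and 2 than in 3 and 4, as were the tenocyte sum and 6 of its 8 genes. The other two were TNMD, a membrane protein of tendon cells, with 158, 169, 31.7 and 187 TPM, and the transcription factor EGR1, with 146, 29.1, 58.7 and 41.8 TPM. Of these markers, COL1A2, a chain of type I collagen, had 15234, 9494, 3871 and 5944 TPM, and the proteoglycan FMOD had 7860.2, 9278, 3808 and 3002 TPM. The part of any of these cell types in the members' levels was not tested, and with 4 tendons no correlation is given.

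**Figure D4:**
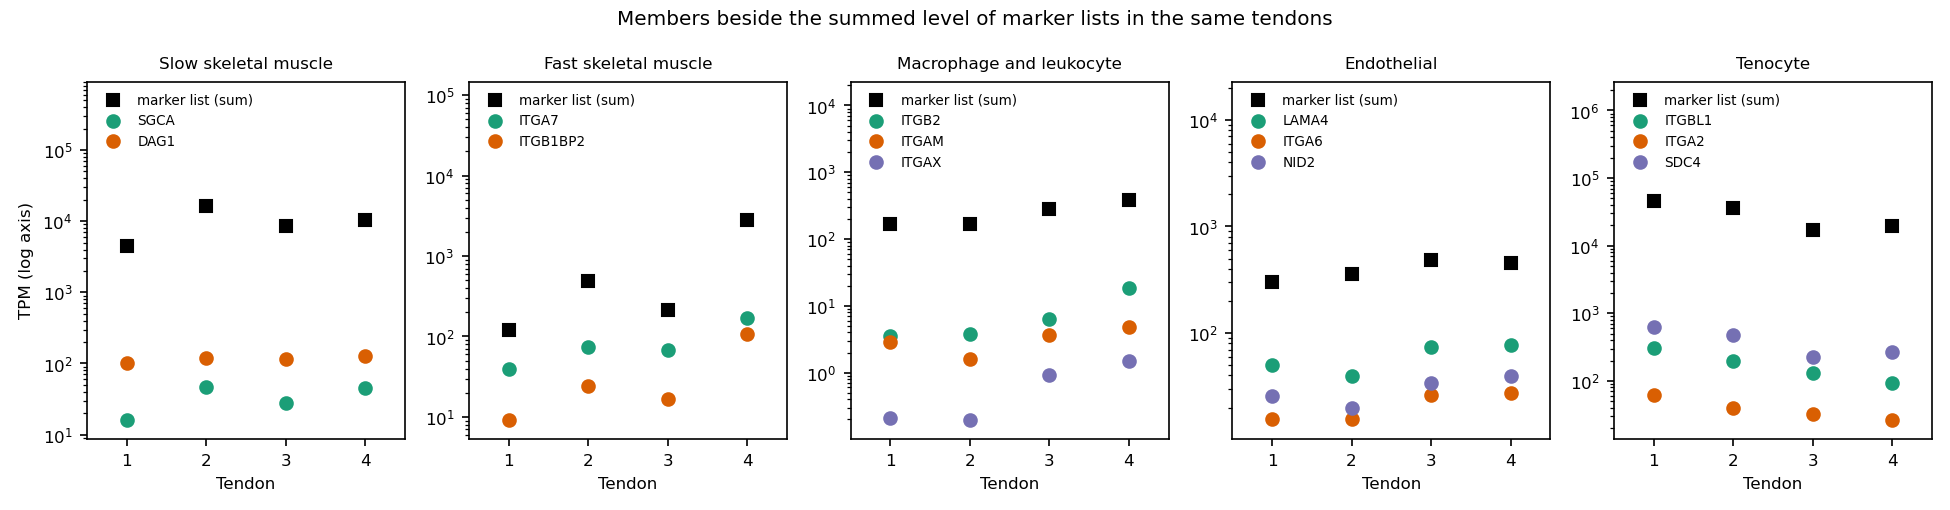
Each of 5 panels sets members (circles) beside the summed level of a marker list (black squares) by tendon, in TPM on a log axis. ITGA7 and ITGB1BP2 are highest in tendon 4 with the fast muscle list, and ITGBL1, ITGA2 and SDC4 are higher in tendons 1 and 2, as is the tenocyte sum, which is mostly type I collagen, FMOD and THBS4.

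Other genes of the same pathways were taken from lists made by function. Integrin adaptors, which connect the receptors to actin, summed to 1916, 1951, 1933 and 1968 TPM in tendons 1 to 4, a spread of 22.2 TPM (SD, n = 4). Of 20 adaptors measured 19 had a mean of at least 1 TPM, and 1 of these, the muscle filamin FLNC, reached 2-fold between tendons, with 64.8, 229, 149 and 166 TPM and tendon 1 lowest. The median fold of the 19 was 1.34, beside 1.41 over all genes, of which 18.8% reached 2-fold. The highest were ILK, the integrin-linked scaffold kinase, at 278 ± 21.7 TPM, its partner PARVA at 244 ± 36.2 TPM, the actin crosslinker FLNA at 204 ± 14.1 TPM and FLNC at 152 ± 67.8 TPM. Genes of the dystrophin complex summed to 388, 395, 376 and 367 TPM over 9 of 12 genes, and DMD itself was not analysed here. SSPN (sarcospan), the membrane partner of the sarcoglycans, had 148, 109, 119 and 118 TPM and UTRN, the dystrophin relative utrophin, 88.9, 54.2, 86.9 and 61.6 TPM. Of 7 genes at 1 TPM or more, 2 reached 2-fold (median fold 1.70, beside 18.8% and 1.41 for all genes). DTNA (dystrobrevin), an adaptor of this complex, had 11.7, 30.5, 20.9 and 32.8 TPM and, like SGCA, was lowest in tendon 1. Genes listed for the pathway by which dystroglycan is glycosylated for laminin binding, not all of them enzymes acting on it, summed to 388, 426, 400.5 and 445 TPM. Of 17 measured, 16 had a mean of at least 1 TPM, with DPM2 the highest at 59.8 ± 7.47 TPM, followed by POMGNT1 at 49.3 ± 8.66 TPM and DPM1 at 46.3 ± 3.71 TPM. Among these 16, 1 gene reached 2-fold, and the median fold was 1.36, beside 18.8% and 1.41 for all genes. Other basement membrane genes summed to 1000.1, 888, 1081 and 1429.8 TPM over 12 of 16 genes, highest in tendon 4. COL4A1 and COL4A2, the main type IV collagen chains, were both highest in tendon 4, as LAMB1 was. COL4A1 had 247, 234, 292 and 508 TPM and COL4A2 159.6, 139, 182 and 301 TPM. The proteoglycan HSPG2 (perlecan) had 220.3, 168, 174 and 227 TPM. Of 11 of these genes at 1 TPM or more, 2 (COL4A1 and COL4A4) reached 2-fold, with a median fold of 1.56, beside 18.8% of all genes.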

How the data were processed

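Estimated counts per transcript were deposited by the authors for 4 tendons, not scaled for depth or length; kallisto 0.42.4, bcl2fastq, FastQC and the build OryCun2.0 are named in the submitters' processing notes, without their roles, and filters and strand use are not given in the sources used here. Symbols, Ensembl identifiers, coordinates and lengths come from the same table. Totals were 19759696, 30646052, 27304439 and 30038827 counts. Counts were summed per gene over 21589 transcripts, TPM were computed from counts and annotated lengths without effective lengths, and the comparison between tendons used CPM scaled by TMM (edgeR 4.0.16 under R 4.3.3, after rounding the gene sums). Alternatives were DESeq2 1.42.0 size factors, library totals, CPM without length correction, another pseudocount, other filters, and omitting a tendon at a time. Within-tendon ratios of TPM + 0.1 were tested with an exact sign-flip permutation test with Benjamini-Hochberg adjustment over the 11 of 14 pairs with both genes measured; 1 of these pairs and some genes are not reported here. No pair of tendons agreed within counting noise (chi-square per degree of freedom 94.4 to 177). Named genes were up to 8 per family by mean TPM, those in ratios, those past 2-fold or far from the other tendons, those behind small counts, and up to 4 per other list; markers near 0, KERA, the single markers that leave their list's pattern and genes that overlap a member were named after their values were seen. Members and lists were chosen with earlier results of these data known. All 47 member symbols matched RefSeq symbols (mOryCun1.1, used for names alone). Python 3.11.15, numpy 2.4.6 and pandas 2.3.3 were used. No sequences are shown.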

Additional observations from a re-analysis of the deposited data

Results flagged for a closer look

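In each group of 4 tendons, the gap between the highest or lowest tendon and its nearest neighbour was divided by the whole range, and values above Dixon's critical value for 4 samples are given here. Of 75 values tested on TPM, summed TPM or log2 ratios, 7 passed, where chance gives about 3.75. Several of these values share genes.

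LAMB1 (0.838), ITGB1BP2 (0.844) and ITGAD (0.909, from 3, 6, 7.25 and 37.1 counts) stood apart as high in tendon 4. The summed glypicans (0.956) were also high there, at 13.8, 13.7, 13.9 and 18.01 TPM in tendons 1 to 4. ITGB5 (0.935) stood apart as low in tendon 4, SDC2 (0.886) as high in tendon 1, and the summed sarcoglycans (0.866) as low in tendon 1, at 241, 294, 294 and 302 TPM. ITGAD had a mean of 0.239 TPM, and 0.107 TPM without tendon 4.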

How the results depend on the processing

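No paired analysis was possible because the series holds 1 group. The count of members at 1 TPM or more was 43, and 34 to 44 under other thresholds and in CPM; it stayed at 43 with any tendon left out. The count of members at 2-fold or more was 14, beside 18.8% of all genes. Under other scalings it was 14 to 19 of the 43, beside 19.4% to 21.3% of all genes. Among members with a mean of at least 5 TPM it was 10 of 34, beside 12.1% of all genes. With 1 count in every tendon as the only filter it was 16, beside 27.8%. With each tendon left out it was 8 to 13, the lowest without tendon 4, beside 12.2% to 16.6% of all genes. The members' summed level was 0.327% of TPM, 0.586% of counts without length correction, and 0.310% to 0.340% with each tendon left out. Without length correction the mean log2 ratio of SDC2 to SDC4 turned from -0.35 to 1.03, since their annotated lengths differ. The other 9 ratios given kept their direction under all alternatives run. Leaving out tendon 4 moved the mean TPM of ITGAD, ITGAX, ITGB1BP2 and ITGB2 by over 1.5 times, to 0.107, 0.445, 16.8 and 4.54 TPM. The levels of ITGAD, LAMA1 and GPC5 rest on few or no counts and are limited by depth.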

Other observations

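Genes that build and edit heparan sulfate, the chain carried by syndecans and glypicans, summed to 308, 275, 313 and 288 TPM in tendons 1 to 4 over 17 of 25 genes, 13 of which had a mean of at least 1 TPM. The highest were EXT2, a chain polymerase, at 52.9 ± 1.23 TPM (SD, n = 4), the sulfatases SULF1 and SULF2 at 48.1 ± 10.8 TPM and 35.9 ± 11.95 TPM, and EXTL2 at 29.98 ± 3.48 TPM. Both sulfatases act on the chains outside the cell. Of the 13 genes, 3 (EXTL1, HS3ST1 and SULF2) reached 2-fold between tendons, with a median fold of 1.35, beside 18.8% and a median of 1.41 for all genes.

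Matrix receptors outside the integrin family summed to 667, 615, 723 and 791 TPM over 10 of 11 genes. MRC2, a collagen uptake receptor, had 269, 225, 195 and 234 TPM, above each of the 4 collagen-binding integrin alpha genes in every tendon. CD44, the hyaluronan receptor, had 85.9, 60.7, 85.6 and 88.8 TPM and DDR2, the fibrillar collagen receptor kinase, 100.01, 55.3, 81.5 and 71.3 TPM. BCAM, a receptor of laminins, had 41.9, 77.3, 91.05 and 85.9 TPM and was lowest in tendon 1. Of 9 genes at 1 TPM or more, 4 (BCAM, CD36, CD248 and MCAM) reached 2-fold, with a median fold of 1.59, beside 18.8% and a median of 1.41 for all genes.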
